A study of Mus musculus with 6 samples.

Results

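The cullin family was examined in mouse embryonic pancreas around one gene, Cul9, whose deposited change was among the largest in the study. The members are the 8 cullin scaffold genes Cul1, Cul2, Cul3, Cul4a, Cul4b, Cul5, Cul7 and Cul9 and the RING partner genes Rbx1 and Rnf7, taken by symbol. All 10 were found among the 14681 genes of the authors' deposited table. The family was chosen by the deposited fold change of Cul9, so the values of Cul9 in this contrast are a description and carry no test here.

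The libraries came from dorsal pancreas dissected at embryonic day 18.5 from C57BL/6 mice, 3 labelled knockout and 3 labelled control. Per the labels, the knockout is Dpy30∆P, which lacks Dpy30 in the pancreas. Dpy30 is a shared subunit of the Trithorax group complexes that methylate histone H3K4. The driver of the deletion, the alleles of the controls and the cells that escape deletion are not given in the labels. The table's own name refers to a Pdx1 knockout at this stage. It holds 1 row per gene, with one mean over all libraries, so values of single libraries cannot be shown and the spread between embryos is seen only through the errors of the fold changes. The numerator of the fold changes is not stated. A negative value is read below as lower in the knockout, on the usual convention, and every direction here depends on that reading. Dpy30 itself did not settle this, with a mean normalized count of 29.4 and a deposited log2 fold change of 0.01 ± 0.22 (posterior SD) in the authors' deposited table. Its unshrunken value, reconstructed as described for Cul9 below, had a 95% interval from -2.74 to 3.74.

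Cullins are the scaffolds of the largest group of ubiquitin ligases. The C-terminal end of a cullin holds a RING protein, Rbx1 or Rnf7, which brings in the ubiquitin-loaded E2 enzyme, and the N-terminal end holds an adaptor with a receptor that picks the substrate. Attachment of the small protein NEDD8 to the cullin switches the ligase on, and the COP9 signalosome takes NEDD8 off again. Cul7 and Cul9 are the large, atypical members. Cul9, called PARC in human cells, carries RING domains of its own and was described there as a cytoplasmic partner of p53, while Cul7 works with the F-box protein Fbxw8 and with Obsl1 and Ccdc8, proteins needed for normal growth in humans.

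Cul9 and Cul7 lie near each other on chromosome 17 and are the pair in which the contrast between a large change and a well measured small one is seen, so their promoters are shown. Each runs from 250 bases before to 50 bases after the start of transcription (RefSeq, GRCm38.p6), 5′ to 3′ on the strand of the gene, with CpG dinucleotides in capitals. The Cul9 promoter is at chr17:46546339-46546638 on the minus strand and the Cul7 promoter at chr17:46650088-46650387 on the plus strand.

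Cul9: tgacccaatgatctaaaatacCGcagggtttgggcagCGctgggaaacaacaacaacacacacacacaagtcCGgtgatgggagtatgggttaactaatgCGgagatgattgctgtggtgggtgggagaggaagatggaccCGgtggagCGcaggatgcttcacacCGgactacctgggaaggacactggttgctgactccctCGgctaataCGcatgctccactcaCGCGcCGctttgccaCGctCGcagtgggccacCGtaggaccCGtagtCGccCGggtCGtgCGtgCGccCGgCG

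Cul7: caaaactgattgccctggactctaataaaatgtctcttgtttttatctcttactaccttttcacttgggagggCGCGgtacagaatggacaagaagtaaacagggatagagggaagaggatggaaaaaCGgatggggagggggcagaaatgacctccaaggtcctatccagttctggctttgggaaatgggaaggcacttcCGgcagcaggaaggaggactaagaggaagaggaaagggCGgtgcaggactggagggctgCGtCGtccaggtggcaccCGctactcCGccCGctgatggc

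The Cul9 window held 23 CpG dinucleotides at 59.7% G and C, and the Cul7 window held 10 at 53.3%. The median of 32841 mouse promoter windows of this length was 7 CpG dinucleotides at 52.7% G and C. Promoter windows were found for 9 of the 10 members, 11 windows in all, and ranged from 5 to 46 CpG dinucleotides, both extremes belonging to alternative starts of Cul1. On either strand, the Cul9 window held 1 CCAAT, a box found in 37.4% of all windows, and 0 matches to GGGCGG, the GC box present in 35.7%. The Cul7 window held 2 GGGCGG, 0 CCAAT and 1 CCGGAAG, an ETS site found in 8.86% of windows. Neither held TATAAA, found in 13.6% of windows. These are matches of letters in a window and do not show binding.

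Cul9 (Entrez gene 78309; chromosome 17, 46500572 to 46546388, minus strand, GRCm38) was far lower in knockout than in control pancreas. The authors' deposited table gives a mean normalized count of 131 over all libraries and a log2 fold change of -3.41 ± 0.82 (posterior SD). The p was 1.59e-06 and the adjusted p 0.000687 in the authors' DESeq2 test. Deposited fold changes are shrunken towards 0. The deposited value of Cul9 corresponds to a level 10.7-fold lower in knockout. The unshrunken value reconstructed here was -3.77 ± 0.78 (SE), which is 13.6-fold lower in knockout, with a 95% interval from 4.71-fold to 39.4-fold. Because Cul9 was chosen for its large change, the unshrunken fold may be too large, and the interval takes no account of that choice. Given 3 libraries a group and the mean over all of them, the unshrunken fold implies a mean normalized count of about 17.9 in knockout and 243 in control libraries. At the ends of the interval these would be 45.7 in knockout against 215 in control, and 6.47 in knockout against 255 in control. They are derived values, and which libraries carry the difference cannot be seen in a table of means.

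By deposited value Cul9 had the 2nd lowest fold change in the table. It had the lowest reconstructed value of the 52 called genes whose reconstruction matched the deposited p. By adjusted p it stood at place 28 of 90 called genes in the authors' deposited table. Its error was ordinary for its abundance: among 1851 other genes with a mean count within 1.3 times that of Cul9, the median SE was 0.83, and 37.1% had a smaller SE than Cul9.

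The other members did not pass the authors' test in either direction. Of the 9 members with an adjusted p, 1 was called lower (Cul9) and 0 higher at an adjusted p under 0.05. The authors' DESeq2 test called 0.743% of 12108 genes, 0.479% lower and 0.264% higher. Without adjustment for multiple testing, 1 of the 9 members with a p was lower and 0 higher at a p under 0.05, where 2.70% of 14386 genes were lower and 2.70% higher. The family was picked for Cul9, so nothing is read from these shares. The deposited log2 fold changes of the other 9 members lay between -0.06 and 0.05, 4 negative and 5 positive, and the p values of the 8 that have one in the authors' table ran from 0.358 to 0.955. The median of all 10 deposited values was 0.00 (0.00 over all genes), and that of the 9 reconstructed values was -0.03 (0.08 over 13051 matched genes).

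**Figure D1:**
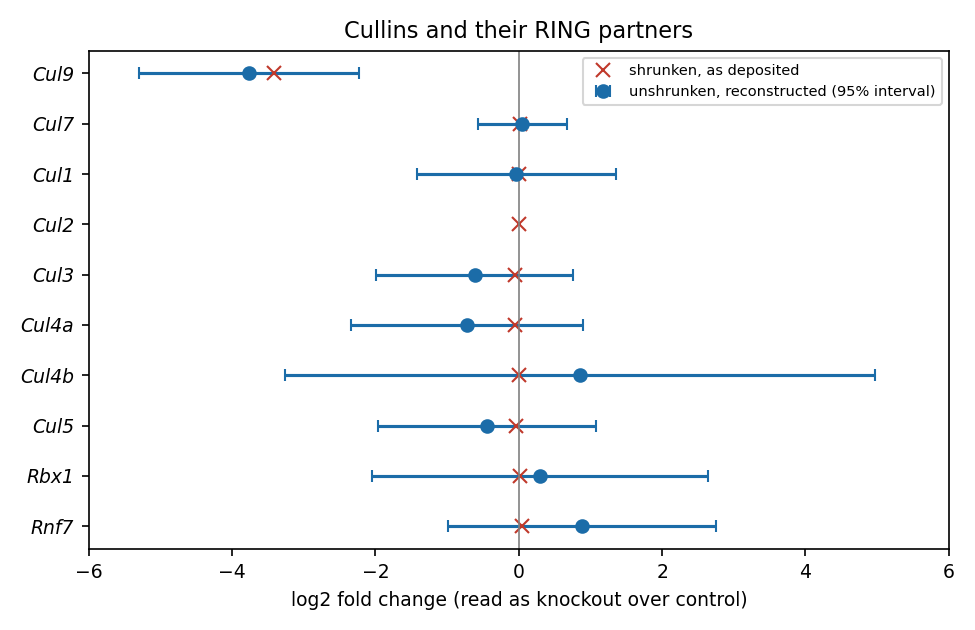
Log2 fold change of each cullin and RING partner gene (x axis, read as knockout over control). Circles are unshrunken values reconstructed here with 95% intervals, crosses the authors' shrunken values; the interval of Cul9 lies wholly below 0, from -5.30 to -2.24, and those of the other 8 members with a reconstructed value span 0.

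Cul7 (Entrez gene 66515; chromosome 17, 46650337 to 46664364, plus strand, GRCm38), the closest relative of Cul9 in the family, was the best measured member. It had a mean normalized count of 947 and a deposited log2 fold change of 0.02 ± 0.18 (posterior SD), with an adjusted p of 1.00 by the authors' DESeq2 test. The reconstructed value was 0.05 ± 0.32 (SE). Its 95% interval ran from -0.58 to 0.67, or from 0.671 to 1.59 times the control level, so a change of the size seen for Cul9 lies outside it. The intervals of Cul7 and Cul9 do not overlap, but Cul9 was chosen for its large change. The difference between these genes was not tested. Both fold changes come from the same libraries. Of the partners of Cul7, 0 of 3 were called by the authors' DESeq2 test, against 0.743% of all genes. Their reconstructed values were 0.31 ± 0.72 (SE) for Obsl1, -0.14 ± 0.79 for Ccdc8 and -0.81 ± 0.62 for Fbxw8.

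The Cul1, Cul3, Cul4a and Cul5 scaffolds had moderate counts and intervals that were wide for those counts. Most other genes with a mean count within 1.3 times their own had a smaller SE. The shares were 86.7% for Cul1, 93.0% for Cul3, 86.9% for Cul4a and 73.1% for Cul5. Cul1, the scaffold of the SCF ligases that take F-box proteins, had a mean normalized count of 281 and, reconstructed, a log2 fold change of -0.03 ± 0.71 (SE). Cul3, which takes BTB-domain receptors such as Keap1, had a mean count of 345 and a value of -0.62 ± 0.70. Cul5, the partner of SOCS-box receptors, had a mean count of 192 and a value of -0.45 ± 0.78. The lower ends of the 95% intervals were -1.42 for Cul1, -1.99 for Cul3, -1.97 for Cul5 and -2.34 for Cul4a. All lie above the -3.77 of Cul9, while that of Cul4a falls inside the interval of Cul9.

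The close relatives Cul4a and Cul4b share the adaptor Ddb1 and differed mainly in how well they were measured. Reads that fit both genes are divided between them by estimate, so their single values are uncertain. Cul4a, with a mean normalized count of 209, was at -0.72 ± 0.83 on the reconstructed log2 scale (SE; 95% interval -2.34 to 0.90). Cul4b, with a mean count of 26.7, had 0.85 ± 2.10, its interval running from -3.27 to 4.97. Thus a change of several-fold in either direction in Cul4b was not detectable at this depth. Cul2, the scaffold that works with the Vhl receptor, had a mean count of 49.7 and a deposited log2 fold change of 0.00 ± 0.22 (posterior SD). The authors' deposited table lists no p for it, as for 295 genes in all, whose mean counts ran from 8.20 to 2831. A reconstruction for Cul2 could not be checked against a p, and none is given.

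The RING partners were on the positive side of 0 without passing the test. Rnf7, the partner of Cul5, had a mean normalized count of 110 and, reconstructed, a log2 fold change of 0.89 ± 0.95 (SE; p = 0.358 in the authors' DESeq2 test). Rbx1, the partner of most other cullins, had a mean count of 94.2 and a value of 0.30 ± 1.20, with an interval from -2.05 to 2.65.

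**Figure D2:**
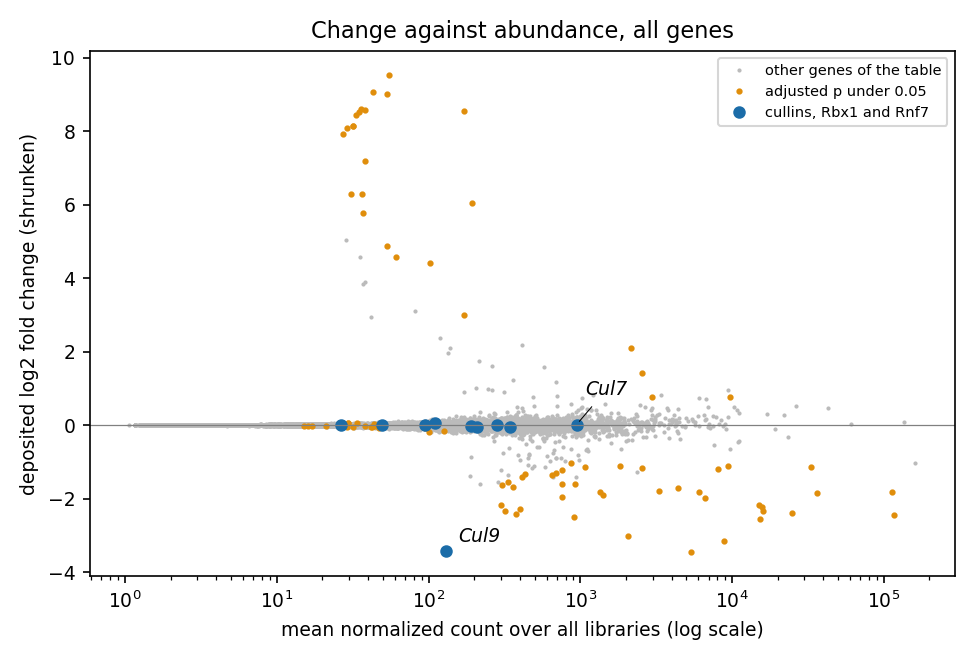
Deposited shrunken log2 fold change (y axis) against mean normalized count over all libraries (x axis, log scale) for 14681 genes. Orange points have an adjusted p under 0.05 in the authors' test and blue points are the 10 members; Cul9 sits at -3.41 and a count of 131, apart from the other members, which lie along 0.

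The genes called lower in the authors' deposited table give the setting of the value for which Cul9 was chosen. The median mean count of the 58 genes called lower in the authors' deposited table was 722, and 17 of them had fewer counts than Cul9. Below a mean count of 250, a limit set after the values were seen, 18 genes were called lower. Cul9 was at -3.41 and the other 17 between -0.20 and -0.01 in the authors' deposited table. These are shrunken values, and of the 18 only Cul9 had a reconstruction that matched its p, so the unshrunken sizes of the other 17 are unknown. Above that limit, 40 of 40 genes called lower had a deposited log2 fold change below -1. Of 28 genes called higher below that limit, 21 had a deposited value above 1.

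The named genes with the nearest deposited fold changes, among those with a mean count above 91.5, were products of secretory cells. In the authors' deposited table Ins2, insulin of the beta cell, was at -3.46 ± 0.42 (posterior SD) and was the single such gene below Cul9. Next above Cul9 were Clps, the cofactor of pancreatic lipase, at -3.14 ± 0.27, Cpa1, a carboxypeptidase of acinar cells, at -2.54 ± 0.27, and Chga, a protein of endocrine granules, at -2.50 ± 0.58. Their mean counts ran from 912 to 15391, against 131 for Cul9. The likeness is in one fold change between groups, not in a profile over samples.

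Markers of several cell types differed between the groups beside Cul9; over all genes, the authors' DESeq2 test called 0.743% and 5.39% had an unadjusted p under 0.05. Of 11 acinar markers in the table, 9 of 10 with an adjusted p were called lower, as were 4 of 8 endocrine markers. Among pan-epithelial markers, 12 of 14 had a negative sign and 1 of 13 was called lower, the keratin gene Krt18 at -1.10 ± 0.29 (posterior SD) in the authors' deposited table. All 10 liver markers and 11 of 12 mesenchyme markers had a positive sign, with 0 of 10 and 0 of 12 called. Without adjustment for multiple testing, 5 liver and 4 mesenchyme markers had a p under 0.05 in the authors' DESeq2 test, all higher. Of 6 erythroid markers with an adjusted p, Gata1 was called higher, and of 6 skeletal and cardiac muscle markers, Ttn, both in the authors' deposited table. The ductal, smooth muscle, endothelial, leukocyte and neural lists had 0 called by the authors' DESeq2 test, and 2, 1, 0, 1 and 0 of their genes had an unadjusted p under 0.05. Both ductal genes with such a p were lower. By sign, 7 of 7 ductal markers were negative, while 7 of 7 smooth muscle, 8 of 8 leukocyte and 6 of 6 erythroid markers were positive. Over all 14681 genes, 8027 deposited values were positive and 6654 negative. Several of the marker values lay close to 0, so a sign alone is not read as a change. Endothelial markers were split, 4 negative and 4 positive, as were skeletal and cardiac muscle markers, and 5 of 8 neural markers were negative. Levels of these lists in each group cannot be given from a mean over all libraries. In bulk tissue, fewer cells of a type and less RNA per cell cannot be told apart. Whether the make-up of the tissue has a part in the value of Cul9 was not tested. Relative to the weighted mean of 10 pan-epithelial markers, itself -0.67, the reconstructed value of Cul9 was -3.10 ± 0.78 (SE). The reconstructed values of those 10 markers ran from -1.69 to 0.03. The SE is that of Cul9 alone and leaves out the error of the marker mean.

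The members differed widely in level when the mean normalized count was divided by length. Per kilobase of coding sequence the order was Rnf7 (325), Rbx1 (291), Cul7 (187), Cul3 (150), Cul1 (121), Cul4a (91.9), Cul5 (74.7), Cul2 (22.2), Cul9 (17.2) and Cul4b (9.17). The median of 13589 genes with a coding length was 50.4, which 7 of the 10 members exceeded. The table gives no spread over libraries for a level, so which neighbours in this order differ cannot be said. Cul9 has the longest coding sequence of the family, 7590 bases, against 5067 for Cul7 and 2235 to 2910 for the other scaffolds. The RING genes are the shortest, 324 bases for Rbx1 and 339 for Rnf7. Per kilobase of transcript, Cul7 came first at 171 and Rnf7 stood at 89.3, Rbx1 at 56.3 and Cul9 at 16.6. The level of Cul9 is a mean over groups that differed. Its implied levels were 2.35 in knockout and 32.0 in control libraries per kilobase of coding sequence. With the direction of the fold changes turned, these 2 levels would change places.

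**Figure D3:**
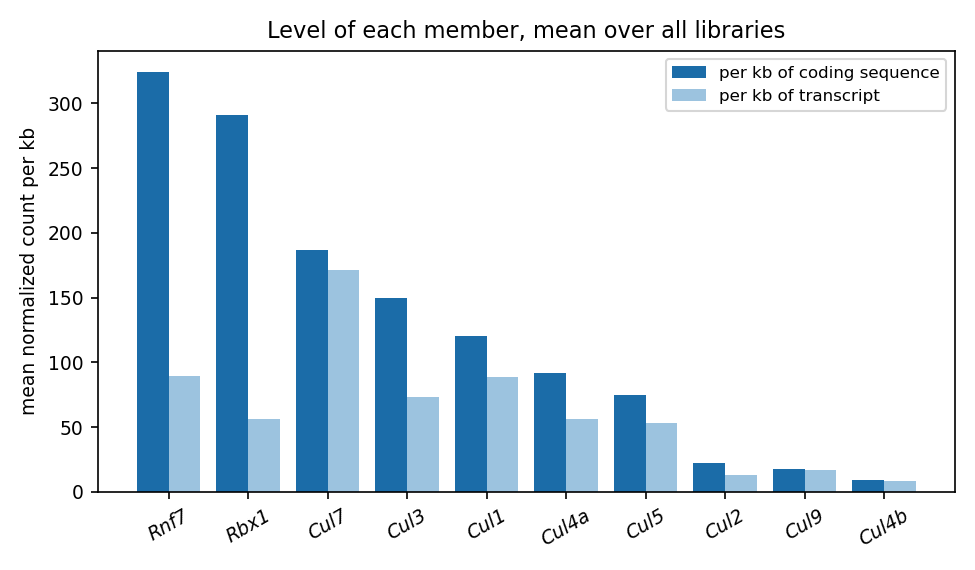
Mean normalized count over all libraries per kilobase of coding sequence (dark bars) and per kilobase of transcript (light bars) for the 10 members, ordered by the dark bars. Dark bars fall from 325 for Rnf7 to 9.17 for Cul4b, and the places of the RING genes among the 10 members depend on which length is used.

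The genes around Cul9 on chromosome 17 were not called. Of the 5 genes of the table on each side, 0 of the 9 with an adjusted p passed the authors' DESeq2 test (Lrrc73 has none), and 0 of 10 had an unadjusted p under 0.05. Over all genes the shares were 0.743% called and 5.39% at that p, so both counts are near the background. Their deposited, shrunken log2 fold changes lay between -0.06 and 0.03, and all 5 on the side of Dnph1 were negative. Of all 14681 genes, 6654 were negative, and some of the 5 values were close to 0, so nothing is read from these signs. Srf, a transcription factor gene whose annotated 3′ end lies 449 bases from the start of Cul9 in RefSeq, had a mean count of 182 and a reconstructed value of -0.01 ± 0.58 (SE). Dnph1, a nucleotide hydrolase gene 990 bases beyond the 3′ end of Cul9, had a mean count of 31.8 and a value of -0.29 ± 1.70. Ptk7, a receptor-like kinase gene 18062 bases away, had 0.07 ± 0.41. Farther out on the side of Dnph1, Ttbk1, a tubulin kinase gene, had -1.75 ± 2.16, Abcc10, a transporter gene, -1.10 ± 0.90, and Tjap1, a tight junction gene, -0.03 ± 1.29. Lrrc73, with a mean count of 2.63, had -8.23 ± 6.40. The intervals of Ttbk1 (-5.99 to 2.48) and Lrrc73 (-20.8 to 4.31) include the reconstructed value of Cul9, -3.77. That of Dnph1 (-3.62 to 3.04) ends close to it. On the other side Klc4, a kinesin light chain gene, had 0.14 ± 1.38 and Mrpl2, a mitochondrial ribosomal protein gene, 1.18 ± 1.38. Cul7 was the 5th gene on that side, 103949 bases from Cul9.

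**Figure D4:**
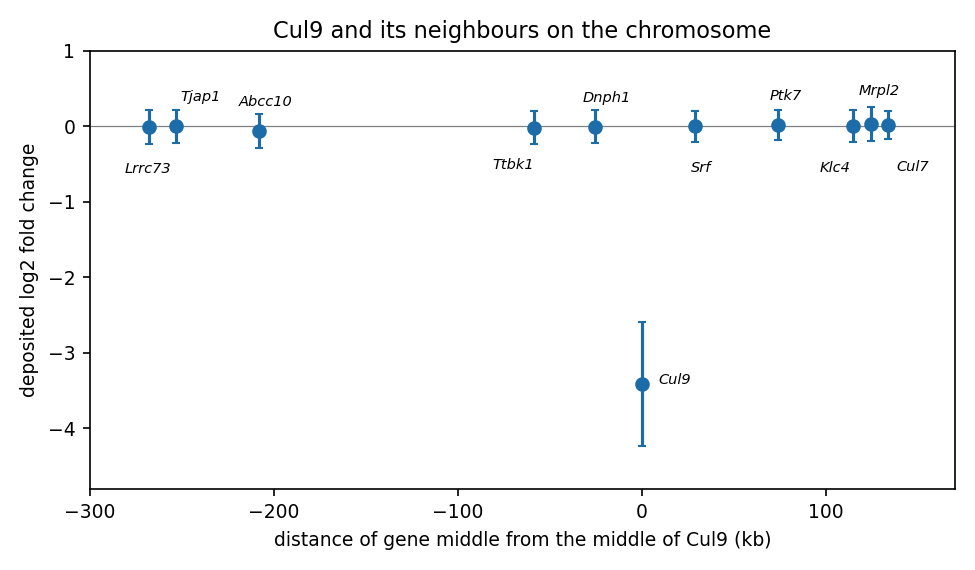
Deposited log2 fold change with posterior SD (y axis) of Cul9 and the 5 genes of the table on each side, placed by the distance between gene middles in kilobases (x axis). Cul9 is at -3.41 and the shrunken values of the 10 neighbours lie between -0.06 and 0.03.

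Other genes of the cullin ligase pathway were then counted from lists that had been drawn up by function. Of 131 listed genes, 118 were in the table and 112 had an adjusted p. None of these 112 was called by the authors' DESeq2 test, against 0.743% of all genes. At an unadjusted p under 0.05, 3 were lower and 1 higher, or 3.45% of the 116 with a p, against 5.39% of all genes. The median deposited log2 fold change of the 118 was 0.00, as over all genes. The 71 with a reconstructed SE of at most 1 lay between -1.08 and 1.05. Cul9 lies outside that range, but it was chosen for its large change, so nothing is read from this. The SE limit also leaves out larger estimates of either sign, such as Fbxo32 at -2.39 ± 1.23 and Eloc at 3.85 ± 2.78.

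By role, each list is short beside the 0.743% of all genes that were called, so the counts of 0 below are near the background. The enzymes that load NEDD8 had 0 of 9 members called in the authors' DESeq2 test. Ube2f, the NEDD8 E2 for Cul5 ligases, and Dcun1d3, of a family of cofactors of NEDD8 transfer, had the smallest p of that list, at reconstructed log2 values of -1.08 ± 0.93 and -0.94 ± 0.77 (SE). NEDD8 removal and the COP9 signalosome had 0 of 11 called. Its subunit genes Cops3 and Gps1 pointed in opposite directions, at 0.93 ± 0.54 and -0.79 ± 0.52. The list of exchange factors and inhibitors had 0 of 3 called, with Cand2, an exchange factor, at 0.69 ± 0.82 and Glmn, an inhibitor that binds Rbx1, at 0.74 ± 1.72. Adaptors had 0 of 4 called and E2 enzymes with ARIH ligases 0 of 9. Dda1, a component of Cul4 ligases, was at 0.51 ± 0.81, and Eloc, the elongin C adaptor of Cul2 and Cul5, at 3.85 ± 2.78, with few reads (mean count 23.1). The E2 genes Ube2d3 and Ube2r2 were at -0.88 ± 0.57 and 1.02 ± 0.85.

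The substrate receptors were likewise uncalled in the authors' DESeq2 test: 0 of 16 F-box genes, 0 of 15 receptors of Cul2 and Cul5, 0 of 24 BTB receptors of Cul3 and 0 of 19 genes of the Cul4 list, which also holds the substrate gene Cdt1. Over all genes 0.743% were called, so these counts are near the background. The 4 genes with an unadjusted p under 0.05 were Crbn, Dcaf7 and Brwd1 of the Cul4 list, all negative, and Asb8, a SOCS-box gene, positive. Crbn, the receptor known as the target of thalidomide in humans, had a deposited value of -0.03 ± 0.22 (posterior SD) in the authors' deposited table, where its adjusted p was 0.606. The adjusted p was 0.632 for Dcaf7, 0.752 for Brwd1 and 0.710 for Asb8 in the same table of the authors. Brwd1, a bromodomain gene, had a reconstructed value of -0.73 ± 0.37 (SE). Klhdc2, a Cul2 receptor for protein C-terminal ends, was at 0.89 ± 0.46. Fbxo32 and Fbxo11, the F-box genes with the smallest p, were at -2.39 ± 1.23 and -0.95 ± 0.66. The BTB genes Klhl24 and Spop were at 2.23 ± 1.43 and -0.54 ± 0.51. Brwd1, Fbxw8 and the following pair of genes were named outside the rule for their known links or their p: Trp53, which encodes p53, was at -0.45 ± 0.71, and Birc5, whose product survivin is a reported Cul9 substrate in human cells, was at -0.04 ± 0.70.

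Transcripts of p53, of cullin ligase substrates and of target genes, here called readout genes, were counted in the same way. Among transcripts of p53 and its targets, of NFE2L2 (the substrate of Cul3 with Keap1) and its targets, of HIF factors (substrates of Cul2 with Vhl) and their targets, and of cell-cycle substrates, 0 of 53 with an adjusted p were called, against 0.743% of all genes, a share at which fewer than 1 of 53 would be. Without adjustment, at a p that 5.39% of all genes passed, 1 was lower and 0 higher at a p under 0.05 in the authors' DESeq2 test. That gene was Vegfa, a HIF target that encodes a vascular growth factor, at -0.87 ± 0.43 on the reconstructed log2 scale (SE; adjusted p = 0.743). The p53 targets with the smallest p, Btg2 and Cdkn1a, were at -1.15 ± 0.76 and -0.97 ± 0.75. The NFE2L2 targets Gsta4 and Gstm1 were at -1.44 ± 1.13 and 0.56 ± 0.48, and Ldha, a HIF target, was at -0.50 ± 0.37. Kmt5a and Cdkn1c, cell-cycle substrates, were at -0.73 ± 0.47 and 0.33 ± 0.25. Protein levels of substrates were not measured, so these transcript counts do not assess the activity of the ligases.

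**Figure D5:**
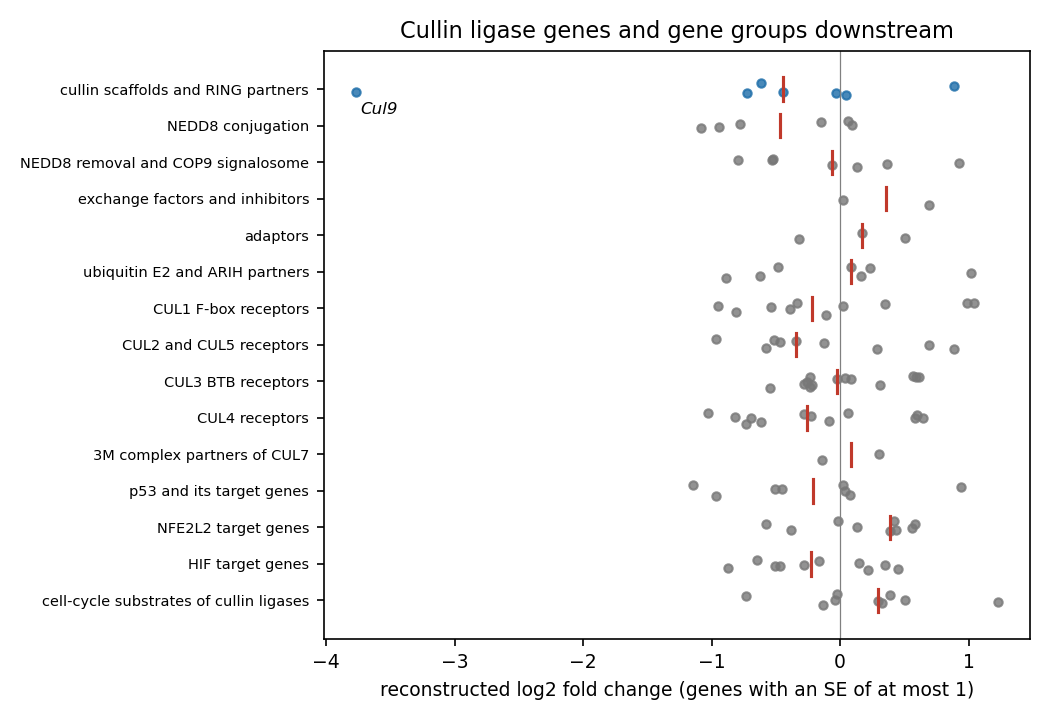
Reconstructed log2 fold change (x axis) of cullin ligase genes and readout genes with an SE of at most 1, by list; red ticks are list medians. Cul9, chosen for its large change, is at -3.77, and the other genes shown lie between -1.15 and 1.23.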

How the data were processed

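RNA sequencing of 3 knockout and 3 control samples was analysed from one table of results. Per the labels' protocols, RNA was ribodepleted and made into stranded libraries. The authors used Trimmomatic, Salmon and DESeq2 with the build GRCm38 (mm10), per the submitters' processing notes, which name no version and no model formula. The authors deposited, per gene, the normalized count averaged over the libraries (a signal), a log2 fold change with its error in log2 units, and p-values before and after adjustment. No depth per library can be given; the means sum to 3663180. A single-cell experiment named in the series' design text was not analysed here. No gene was tested on library values. In the closing section, the p-values were re-adjusted over other gene sets, or recomputed from reconstructed values on another scaling.

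The log2 fold changes deposited by the authors are shrunken, with 92.7% within 0.1 of 0. Unshrunken values were reconstructed from mode and posterior SD under a Cauchy prior. Its scale, 0.310, was the one in a narrow grid around that value that returned most deposited p-values to within 0.1 z. That held for 90.7% of 14386 genes, and values are given only for these genes. The choice of scale and the match rest on the same p-values. On simulated data, 100% of 5714 genes came back to within 0.05. This checks the arithmetic only.

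Lengths came from the longest coding transcript in GENCODE M21. Members and lists were chosen with earlier results of these data known. Named genes are the members, the called or 2 lowest-p genes of each list, 5 neighbours on each side, and up to 3 genes nearest Cul9 in fold change on each side. The labels say that 3 embryos of each kind were dissected, and the p-values rest on the spread between those. Scripts used Python 3.11.15, pandas 2.3.3 and scipy 1.17.1.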

Additional observations from a re-analysis of the deposited data

How the results depend on the processing

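Members were chosen for the deposited change of Cul9, so its values under the alternatives describe the processing and do not support the call. Its adjusted p ran from 0.000539 to 0.00994, the largest being relative to pan-epithelial genes, and its log2 fold change from -3.77 to -3.10, against -3.41 as deposited. The members called stayed at 1. The count of all genes called was 90 as deposited, 54 at an adjusted p under 0.01, and 56 among genes with a mean count of at least 50. It was 191 relative to pan-epithelial genes, which adds 0.67 to every gene (19 lower and 172 higher, against 58 and 32), and 42 relative to the median of well determined genes. Both of these could be run only on the 11363 genes with both an adjusted p and a matched reconstruction, which include 52 of the 90. Relative to pan-epithelial genes, 1 pathway gene, Klhdc2 at 1.56 (adjusted p = 0.0428), and 1 readout gene, Cdkn1c at 1.00 (adjusted p = 0.0110), were called higher. Of the 9 members with a reconstructed value, all but Cul4a and Cul9 were above 0 on that scaling. On both scalings the SE of each gene was left unchanged. The p-values behind these calls therefore leave out the error of the reference value and may be too small. By level, Cul9 was at place 9 of 10 per kilobase of coding sequence, 8 per kilobase of transcript and 6 without division by length. No paired analysis was possible because the table holds no values of single libraries. For the same reason, leaving out each replicate was not run.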

Other observations

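The genes around Dpy30, also on chromosome 17, were examined in the same way as those around Cul9. Of the 5 genes of the table on each side, 0 of the 8 with an adjusted p passed the authors' DESeq2 test (Galnt14 and Nlrc4 have none), and 0 of 10 were below 0.05 without adjustment. Over all genes 0.743% were called and 5.39% had such a p, so both counts are near the background. Their deposited, shrunken log2 fold changes lay between -0.08 and 0.13. Birc6, a large ubiquitin-conjugating enzyme gene, had a mean normalized count of 1365 and a reconstructed value of 0.35 ± 0.31 (SE). Spast, which encodes the microtubule-severing protein spastin, had 0.10 ± 0.63. Memo1, the nearest, had 0.52 ± 1.03.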
